A study of Mus musculus with 4 samples.

Results

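Hair cells are the mechanosensory cells of the inner ear. Deflection of their actin-filled stereocilia opens channels formed by TMC proteins, and the calcium and integrin-binding proteins CIB2 and CIB3 are partners of those channels. Cib3 is best known from the vestibular organs, where hair cells keep a kinocilium, a true cilium built on an axoneme, and where the potassium channel Kv1.8 (gene Kcna10) is also used. The cells described here are hair cells of mouse inner ear organoids in which Cib3 RNA was detected.

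RNA was counted per cell in 4 droplet libraries, 1 each from organoids at day 16 and day 20 in vitro and from organoids at day 21 sorted into a GFP high and a GFP low fraction. Every library came from the same mouse embryonic stem cell line, Atoh1-nGFP-ESC, a single line whose nuclear GFP reports on Atoh1, a transcription factor needed to make hair cells. Per the labels the organoids of all 4 groups were dissociated whole and sorted on GFP, but a gate is named for the day 21 libraries alone. Each group had 1 library, with no replicate.

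A barcode was kept with at least 1000 detected genes and at most 15% mitochondrial UMIs, where a UMI is 1 counted RNA molecule. Hair cells were gated at 100 CPM (counts scaled to a total of 1000000) of Otof, a synaptic calcium sensor, and 200 CPM of Myo6, a stereocilia base myosin. Of the gated cells, the Cib3-positive hair cells had at least 2 UMIs of Cib3 and fewer than 3 of Ocm, 5 of Bmp2 and 3 of Agr3. They numbered 1553 of 3291 gated cells and of 15416 kept cells. The rule uses measured values of these 6 genes, whose levels are therefore given with no test. The other gated cells comprised 958 that met the limits on Ocm, Bmp2 and Agr3 but had 0 or 1 Cib3 UMI (here called Cib3-low hair cells), 233 with 3 or more Ocm UMIs (Ocm-high), 346 with 5 or more Bmp2 UMIs (Bmp2-high) and 201 with 3 or more Agr3 UMIs.

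The Cib3-positive cells numbered 45 at day 16, 35 at day 20, 1228 in the GFP high library and 245 in the GFP low library. They formed 28.8% of gated cells at day 16 (95% exact Clopper-Pearson interval 21.9 to 36.6), 27.3% at day 20 (19.8 to 35.9), 52.8% in GFP high (50.8 to 54.9) and 35.9% in GFP low (32.3 to 39.6). Of all kept cells they were 1.29%, 0.769%, 34.7% and 6.41% in the same order. The GFP high library held most of the members. The intervals cover the sampling of cells within a library, and with 1 library a group they do not test a difference between groups. The shares follow from sorting as well as from the cells, and these cannot be told apart. With a Cib3 minimum of 100 CPM in place of 2 UMIs, the day 16 cells numbered 17, or 10.9% of the gate.

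**Figure D1:**
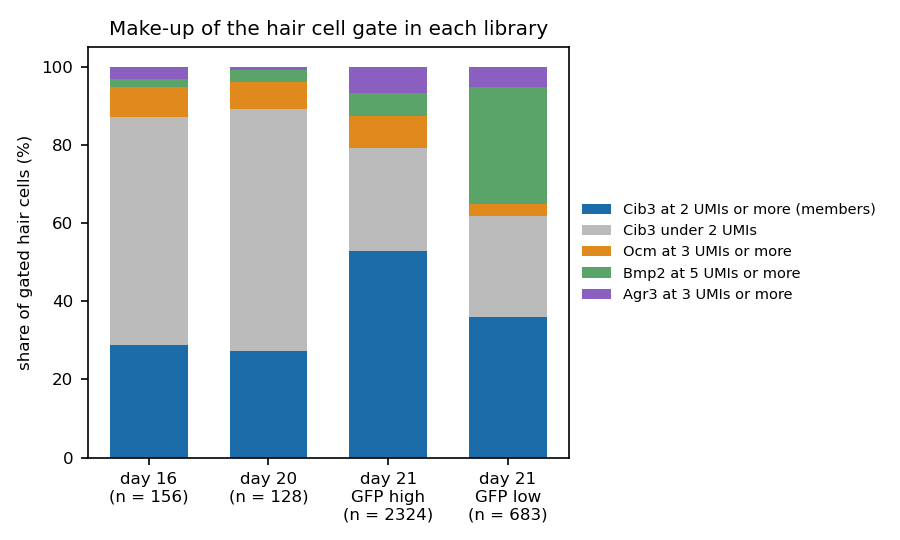
Share of gated hair cells (y axis, %) in each class, for the 4 libraries on the x axis with the number of gated cells. Cib3-positive cells (blue) made up 28.8%, 27.3%, 52.8% and 35.9% of the gate from left to right.

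Members had median totals of 33987 UMIs at day 16, 19479 at day 20, 29854 in the GFP high library and 24641 in the GFP low library, near those of the Cib3-low cells (33870, 16491, 30072 and 23841). Median mitochondrial shares were 3.71%, 1.62%, 6.13% and 6.37% in members and 3.05%, 1.57%, 4.83% and 3.76% in Cib3-low cells. At day 16, 30 of the 45 members, and 59 of the 91 Cib3-low cells, had more than 2 times the median total of their library. Of all 3496 kept cells of day 16, 471 did. Scrublet placed 4, 0, 42 and 11 members, and 5, 7, 9 and 7 Cib3-low cells, among the highest doublet scores of the 4 libraries. Among all kept cells these were 120 of 3496, 205 of 4553, 109 of 3544 and 137 of 3823. The libraries of day 16 and GFP high shared 1 barcode among members. Separate cultures are not named in the labels. The p-values below thus measure only how the difference between classes of the same library varied over these libraries.

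General hair cell markers were checked against cells outside the gate. Myo7a, a stereocilia myosin, stood at 170 CPM in members of day 16, 127 at day 20, 214 in the GFP high library and 208 in the GFP low library, against 1.14 to 18.8 CPM in cells outside the gate. Lhfpl5, a tip link partner, stood at 1069, 1556, 702 and 351 CPM, against 19.5 to 76.6 outside. Both genes were higher in members in every library. Tmc1, a subunit of the transduction channel, was low at day 16 with 16.2 CPM and reached 39.0, 112 and 167 CPM in the later libraries. The remaining markers, Kcna10, Cabp2 and Slc17a8, were named from earlier results of these data and are no independent check.

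Marker lists of other cells were present at different levels. Summed over 12 supporting cell genes, members held 1843 to 4208 CPM, of which Fbxo2 alone gave 1762 to 4089. All other gated cells held 1621 to 3007 CPM, less than members in each library. Neuron markers summed to 1027 to 1908 CPM, mostly Nefm (600 to 979) and Nefl (393 to 700), whereas Dcx, a marker of young neurons, was at 2.54 to 19.8. Mesenchyme markers summed to 792 CPM at day 16, 152 at day 20, 48.5 in the GFP high library and 16.0 in the GFP low library, and 1 of these 8 genes was at 0 in GFP low. All other gated cells held 229, 583, 58.3 and 48.2 CPM, so members held more at day 16 and less in the later libraries. Ccer2, on the list of Merkel cell markers, stood at 5779, 5352, 3955 and 843 CPM in members. Epidermis markers summed to 1.87, 1.44, 4.08 and 59.0 CPM in members, against 52.9, 15.2, 6.91 and 3.004 in all other gated cells. Glia markers summed to 7.46, 82.3, 18.2 and 28.5 CPM against 17.2, 7.62, 50.3 and 28.95. Cycling genes summed to 287, 219, 235 and 113 CPM against 175, 169, 173 and 89.4. Mcm6 alone gave 185 CPM in GFP high members but 15.7 in GFP low members. Its ratios of members to all other gated cells were 2.26, 1.91, 1.83 and 0.503. Those of Mki67 were 0.108, 2.27, 0.0665 and 17.4, and of Top2a 0.178, 1.14, 0.274 and 5.69. The intervals of Top2a at day 16 and of both at day 20 included 1. In GFP low, Cdk1, Ccnb1 and Birc5 were also above all other gated cells, at ratios of 2.30, 2.84 and 3.12 with intervals above 1. In GFP high the same genes were at 0.383, 0.699 and 0.372 with intervals below 1. Against all other gated cells edgeR called 0 of 5 tested cycling genes higher and 0 lower, beside 6.16% and 5.03% of all genes. Whether more members were cycling was not tested. Stress genes summed to 625, 520, 804 and 678 CPM against 693, 689, 1711 and 1339, lower in members in each library. Of these, 4 of 8 (Fos, Jun, Egr1 and Atf3) were called lower than in all other gated cells by edgeR, beside 5.03% of all genes tested. Against Cib3-low cells 1 of 8 was called lower (Jun) and 1 higher (Hspa1b), beside 4.09% and 7.19% of all genes. Against Ocm-high cells 1 of 8 was called higher (Fos) and 0 lower, beside 4.7% and 4.29% of all genes. The part of these RNAs in the results below was not tested.

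Around the Cib3 minimum the neighbouring genes changed without a gap. Cells with 1 Cib3 UMI (250 cells over all libraries) held 215 CPM of Kcna10 and 415 of Cabp2, and cells with 2 UMIs (128 cells) held 193 and 448. Cells with 4 or more UMIs (1332 cells) held 612 and 988 CPM. The median member had 3 Cib3 UMIs at day 16, 7 at day 20, 19 in the GFP high library and 20 in the GFP low library, so the rule cut closest to the low end at day 16.

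Cib3 (ENSMUSG00000074240) lies on the minus strand of chromosome 8 at 72204335 to 72212837 in GRCm38. By the rule, its level in members was 136 CPM at day 16, 413 at day 20, 844 in the GFP high library and 1134 in the GFP low library. Counts summed per library and class were compared with edgeR's quasi-likelihood test, with the library as a block and Benjamini-Hochberg adjustment over all genes tested. The references were the Cib3-low cells, which differ from members by the Cib3 minimum alone, and all other gated cells, which the limits on Ocm, Bmp2 and Agr3 also shape. Both comparisons share the members, so they are not independent.

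Against Cib3-low cells, 856 of 11910 genes rose (7.19%) and 487 fell (4.09%), 11.3% in all, at an adjusted p under 0.05. Against all other gated cells, 773 of 12549 rose (6.16%) and 631 fell (5.03%). Without the GFP high library these counts were 152 and 49, and 117 and 87. Without GFP low they were 488 and 245 against Cib3-low cells, and the genes lower than in all other gated cells numbered 403. Without day 20 the counts against all other gated cells were 502 and 416. With no block for the library edgeR called 3 and 0 genes against Cib3-low cells (598 at an unadjusted p under 0.05) and 0 and 1 against all others (655). DESeq2 with the block called 716 and 463, and 783 and 574.

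Members carried more RNA of several channel genes than Cib3-low cells did. Kcna10 (chromosome 3, 107183056 to 107195721, plus strand) stood at 51.0, 320, 526 and 889 CPM in members and at 21.0, 177, 166 and 368 CPM in Cib3-low cells. This gene was chosen as a marker on these data, so its test is no independent support. The difference was 1.34 on the log2 scale (SE 0.12, adjusted p = 0.0012, edgeR). Against all other gated cells, which include the Bmp2-high cells with 926 and 1093 CPM in the 2 day 21 libraries, it was 0.56 (SE 0.13, adjusted p = 0.0286), and this call was lost without GFP high (adjusted p = 0.093), without day 20 (0.0741) and with a minimum of 4 Cib3 UMIs (0.063). Chrna9, a subunit of the acetylcholine receptor of efferent synapses, rose by 0.52 (SE 0.10, adjusted p = 0.0131, edgeR) against Cib3-low cells, with 184, 130, 101 and 66.1 CPM in members against 117, 81.6, 87.6 and 43.8. Kcnab1, a potassium channel beta subunit, was the member of the list that fell in both comparisons, at -0.71 (adjusted p = 0.00526) and -1.92 (adjusted p = 0.000211). In all, 4 of 12 tested channel and receptor genes rose and 1 fell against Cib3-low cells, and 3 rose and 3 fell against all other gated cells. The marker Kcna10 is counted among those that rose in both. The shares over all genes were 7.19% and 4.09% in the former, and 6.16% and 5.03% in the latter.

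**Figure D2:**
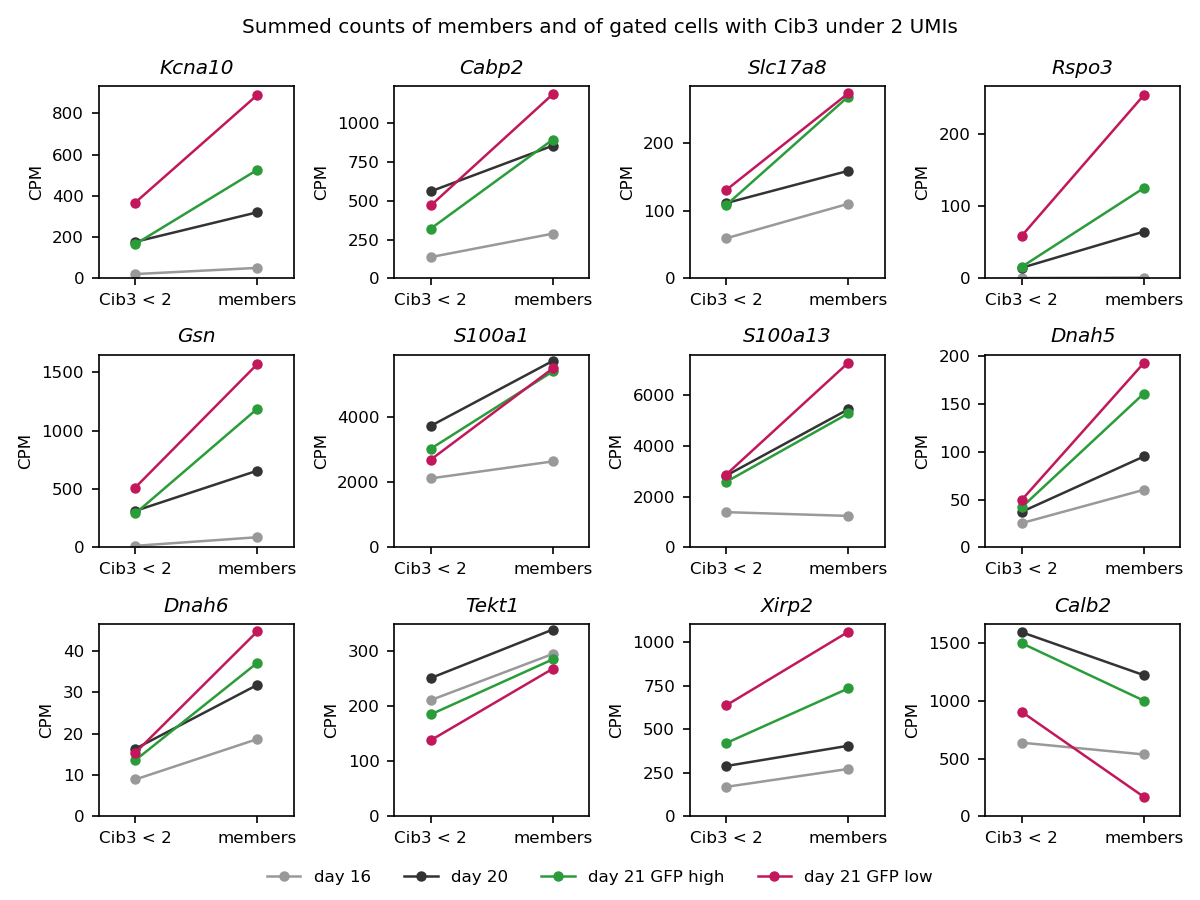
CPM of summed counts (y axes, each from 0) in Cib3-low cells and in members of the same library (x axis), 1 line per library, for 12 genes. Kcna10, Cabp2, Slc17a8 and Dnah5 rise in every library, while Calb2 falls in every library with a spread that did not pass the test (adjusted p = 0.122).

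Ribbon synapse genes were described by 2 of the markers. Cabp2, which modulates the calcium channels of the synapse, stood at 289, 856, 895 and 1188 CPM in members and at 138, 561, 321 and 470 CPM in Cib3-low cells. Slc17a8, the vesicular glutamate transporter VGLUT3, stood at 110, 159, 268 and 273 CPM against 59.2, 111, 108 and 131. The log2 differences were 1.18 (SE 0.13, adjusted p = 0.00174) and 1.04 (SE 0.11, adjusted p = 0.00178, edgeR). Both genes were chosen as markers on these data. Of the 11 tested genes of the list, the third that rose was Snap25, a vesicle fusion protein, at 0.55 (adjusted p = 0.0128). The share of all genes that rose was 7.19%. Ctbp2, which encodes the ribbon protein, had a log2 difference of 0.30 (adjusted p = 0.0506), and Cacna1d, the calcium channel, of 0.27 (adjusted p = 0.0853).

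The transduction channel genes were compared next. Tmc1 stood at 16.2, 39.0, 112 and 167 CPM in members and at 11.8, 27.98, 78.03 and 86.4 in Cib3-low cells, a log2 difference of 0.70 (SE 0.11, adjusted p = 0.00711, edgeR). Tmc2, its paralog, had 0.93 (adjusted p = 0.0457) at levels of 5.77 to 18.8 CPM in members, and Tomt, needed to bring TMC proteins to the bundle, had 0.61 (adjusted p = 0.00411). So 3 of 8 tested genes rose and 0 fell, beside 7.19% and 4.09% of all genes. In the comparison with all other gated cells 1 of 8 rose, Tomt, with 0.43 (adjusted p = 0.0118), beside 6.16% of all genes. Cib2, the paralog of Cib3, stood at 1010, 1180, 713 and 270 CPM in members and at 826, 946, 828 and 570 in Cib3-low cells. It was higher in members in 2 libraries and lower in 2, with a log2 difference of -0.14 (SE 0.20, adjusted p = 0.738).

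Hair bundle genes rose in 9 of 24 cases against Cib3-low cells and fell in 0, with a median log2 difference of 0.31 over the list and of -0.00 over all genes tested. Of all genes tested, 7.19% rose and 4.09% fell. Xirp2, an actin repair protein of stereocilia, stood at 273, 406, 735 and 1059 CPM against 170, 289, 421 and 638, a log2 difference of 0.72 (SE 0.07, adjusted p = 0.00133, edgeR). Espn, an actin bundler, stood at 912, 1494, 1855 and 2798 CPM against 759, 1099, 1197 and 1903, a difference of 0.51 (SE 0.07, adjusted p = 0.00548). The others were Myo7a, Fscn2, Pls1, Ush1c, Triobp, Loxhd1 and Ptprq, with 0.33 to 0.65. The other reference gave 5 of 24 higher and 0 lower, beside 6.16% and 5.03% of all genes. Against Ocm-high cells 2 of 24 rose and 4 fell (median -0.11), and against Bmp2-high cells 1 rose and 3 fell (median -0.14). The shares over all genes were 4.7% and 4.29% in the former, and 1.87% and 3.07% in the latter. Espn stood at 2566 and 2972 CPM in Bmp2-high cells of the GFP high and GFP low libraries, above the members of both (adjusted p = 0.246, edgeR).

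Axonemal genes build the kinocilium. Of 14 tested genes of motile cilia, 12 rose and 0 fell against Cib3-low cells, and the same counts held against all other gated cells, beside 7.19% and 6.16% of all genes. The list medians were 0.64 and 0.55. Against Ocm-high cells, compared in 3 libraries, 3 of 14 rose and 1 fell, and against Bmp2-high cells, compared in 2, 1 of 14 rose and 1 fell (medians 0.53 and 0.12). Dnah5 rose and Mlf1 fell in both. The shares over all genes were 4.7% and 4.29% against Ocm-high cells, and 1.87% and 3.07% against Bmp2-high cells. Dnah5, an axonemal dynein heavy chain (chromosome 15, 28203752 to 28472052, plus strand), stood at 60.3 CPM in members of day 16, 95.2 at day 20, 161 in the GFP high library and 193 in the GFP low library, and at 25.5, 37.3, 42.1 and 49.8 in Cib3-low cells. The ranges of the classes did not overlap, and the log2 difference was 1.77 (SE 0.13, adjusted p = 0.000966, edgeR). Dnah6, another dynein heavy chain, had 1.41 (SE 0.13, adjusted p = 0.0012) and Zmynd10, a dynein assembly factor, 1.09 (SE 0.15, adjusted p = 0.00478). Tekt1, a tektin of the axoneme, stood at 295, 339, 285 and 268 CPM against 211, 251, 185 and 138, a difference of 0.67 (adjusted p = 0.00478). Pifo had the smallest change among the 12, at 0.35 (adjusted p = 0.0171). Foxj1, the transcription factor of motile cilia, had 0.20 (adjusted p = 0.343), with 181, 70.7, 217 and 169 CPM against 120, 96.4, 191 and 161. Without the GFP high library, 6 of 14 axonemal genes rose against Cib3-low cells and 4 against all others. With no block 0 did in either comparison. Both settings also called far fewer of all genes, at the counts given above. The 0 with no block is thus not particular to axonemal genes.

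RFX transcription factors bind the X-box motif in promoters of cilium genes, and GTTGCC is a core sequence of that motif. The letters GTTGCC were searched on both strands. Among the 13 of 15 listed axonemal genes with a RefSeq promoter on GRCm38.p6, 5 had GTTGCC or its reverse complement in the 250 bases before the start (Ccdc153, Tekt1, Dynlrb2, Pifo and Mlf1), or 38.5%, against 11.8% of 27025 genes searched the same way. It was found in 2 of 19 bundle genes, in 0 of 9 ribbon synapse genes and in 1 of 8 transduction genes (12.5%), which was Cib3. Of the 5 axonemal genes with it, Tekt1, Dynlrb2 and Pifo rose against Cib3-low cells. Mlf1 passed in neither direction there, and Ccdc153 was not tested. The promoters of 3 axonemal genes that rose are shown with that of Cib3, 5′ to 3′ on the strand of each gene, with the motif in capitals.
Tekt1, chr11:72361883-72361927, minus strand: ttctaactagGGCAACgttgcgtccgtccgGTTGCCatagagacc
Dynlrb2, chr8:116504934-116504999, plus strand: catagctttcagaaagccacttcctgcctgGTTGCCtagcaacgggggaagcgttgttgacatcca
Pifo, chr3:106001498-106001539, minus strand: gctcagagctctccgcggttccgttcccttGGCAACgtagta
Cib3, chr8:72212936-72213001, minus strand: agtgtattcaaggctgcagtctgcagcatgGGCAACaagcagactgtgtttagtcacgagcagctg
The motif began 15 and 35 bases before the start in Tekt1, once on each strand, and 51, 12 and 134 bases before it in Dynlrb2, Pifo and Cib3. A longer form, GTTGCCAT, was in Tekt1 and Mlf1 and in 1.29% of genes. A match is a description of the letters and not a binding site. Rfx3, an RFX gene of the transcription factor list, stood at 83.4, 30.3, 84.6 and 90.1 CPM in members and at 56.7, 38.9, 70.4 and 75.3 in Cib3-low cells, a log2 difference of 0.31 (adjusted p = 0.101, edgeR), and at 59.6, 36.8, 64.3 and 67.3 in all other gated cells, a difference of 0.40 (adjusted p = 0.0378).

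**Figure D3:**
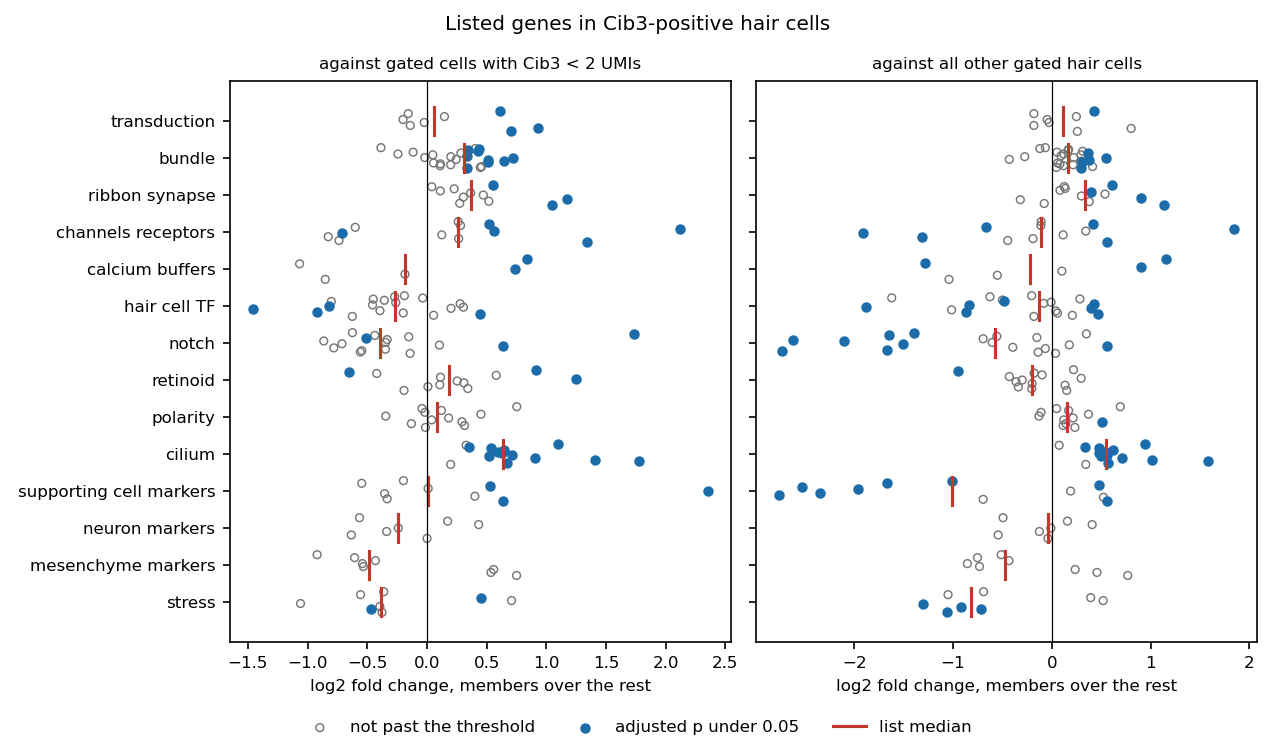
Log2 fold change (x axis) of each tested gene of 14 lists (y axis), members over Cib3-low cells on the left and over all other gated cells on the right; filled points passed an adjusted p of 0.05 and red bars are list medians. The cilium list has 12 of 14 filled points right of 0 in both panels, and the supporting cell list has 6 filled points left of 0 only in the right panel.

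Among genes past the threshold, at 50 CPM or more in either class and with 1 direction in every library, Rspo3 had the highest log2 fold change in both comparisons. It encodes a secreted enhancer of Wnt signalling and stood at 1.24 CPM in members of day 16 (2 UMIs), 64.9 at day 20, 125 in the GFP high library and 254 in the GFP low library. Cib3-low cells held 0.637, 14.8, 16.1 and 59.2 CPM. The log2 difference was 2.53 (SE 0.18, adjusted p = 0.000966, edgeR), with the higher value in members in 4 of 4 libraries, although day 16 rests on too few UMIs to compare. Gsn, the actin-severing protein gelsolin, stood at 87.1, 657, 1187 and 1568 CPM against 13.7, 313, 291 and 513, a difference of 1.78 (SE 0.18, adjusted p = 0.00143). Of the other genes at the top against Cib3-low cells, Crip3, Zcchc12, Slc4a4, Ccdc33, Gm4791 and Nme9 had log2 differences of 1.62 to 1.83. Slc4a4 encodes a sodium bicarbonate cotransporter. Dnajc5b, Sema6d, a semaphorin, and Gm34653 ranked among the top 10 against all other gated cells, with 1.43 to 1.78.

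The genes furthest below Cib3-low cells included Ccdc88b at -2.33 (SE 0.30, adjusted p = 0.00328, edgeR), with 33.0, 4.33, 16.4 and 0.818 CPM against 92.0, 46.6, 81.0 and 21.6. Eif4ebp1, a repressor of translation, had -1.82, Stc2, a secreted stanniocalcin, -1.80, and Asns, asparagine synthetase, -1.53. Tubb2b, a beta-tubulin, stood at 499, 47.6, 75.9 and 221 CPM against 958, 187, 437 and 491, a difference of -1.57 (SE 0.25, adjusted p = 0.00679). Mdk, the growth factor midkine, had -1.32 (SE 0.11, adjusted p = 0.00115). Kcnmb2, a beta subunit of BK channels, had -1.76 (adjusted p = 0.0153), and Insl6, Tshz2 and Tmem176a had -1.49 to -1.34. These 10 genes were chosen as lower in members in each library.

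Of 5 tested calcium buffer genes, 2 rose and 0 fell against Cib3-low cells, beside 7.19% and 4.09% of all genes. S100a1 stood at 2629, 5703, 5380 and 5474 CPM in members and at 2111, 3716, 3018 and 2684 in Cib3-low cells, a log2 difference of 0.73 (SE 0.11, adjusted p = 0.00564, edgeR). S100a13 stood at 1239, 5433, 5269 and 7266 CPM against 1387, 2825, 2580 and 2867, higher in 3 of 4 libraries, with 0.83 (SE 0.21, adjusted p = 0.0401). Against all other gated cells S100a13 had 1.16 (adjusted p = 0.0241), a call lost without day 20 (adjusted p = 0.112) or GFP high (0.132). Calb2, calretinin, was lower in members in 4 of 4 libraries, at 536, 1221, 1001 and 169 CPM against 637, 1592, 1496 and 903, but its log2 difference of -0.85 (SE 0.31) had an adjusted p of 0.122. The difference was largest in GFP low.

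Of the hair cell transcription factors, 1 of 19 rose and 3 fell against Cib3-low cells, beside 7.19% and 4.09% of all genes. Against all other gated cells 3 of 20 rose and 4 fell, beside 6.16% and 5.03%. Gfi1, needed for hair cell survival, stood at 369, 535, 523 and 643 CPM in members and at 294, 471, 359 and 439 in Cib3-low cells, a difference of 0.45 (SE 0.08, adjusted p = 0.0102, edgeR). Against all other gated cells Gfi1 had 0.47 (adjusted p = 0.0267, edgeR), a call lost without GFP high (adjusted p = 0.17). Barhl1, a homeobox factor, stood at 104, 27.4, 52.3 and 8.995 CPM against 127, 69.96, 93.95 and 35.7, a difference of -0.93 (SE 0.21, adjusted p = 0.0273). Insm1 had -1.46 (SE 0.39, adjusted p = 0.049). Isl1, a LIM-homeodomain factor, had -0.82 (SE 0.12, adjusted p = 0.00506) against Cib3-low cells and -1.88 (adjusted p = 0.0144) against all other gated cells. That second call was lost without day 20 (adjusted p = 0.059) or GFP high (0.096). Pou4f3, expressed by hair cells at large, stood at 693, 632, 623 and 493 CPM against 731, 547, 620 and 501, a difference of 0.06 (adjusted p = 0.691). Atoh1 stood at 231, 228, 165 and 20.9 CPM against 289, 181, 246 and 93.9, a difference of -0.62 (SE 0.30, adjusted p = 0.226).

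Of the Notch genes, Lfng and Heyl rose against Cib3-low cells and Hes6 fell, 3 of 16 tested. All genes gave 7.19% higher and 4.09% lower. Heyl, a Notch effector, stood at 9.95, 14.4, 33.7 and 19.9 CPM against 5.09, 6.22, 8.09 and 6.94, a log2 difference of 1.73 (SE 0.20, adjusted p = 0.00236, edgeR). Against all other gated cells 1 of 18 rose and 7 fell, among them Hes1 at -2.62 (adjusted p = 0.00317), Jag1 at -1.67 (adjusted p = 0.00105) and Notch1 at -1.50 (adjusted p = 0.00104). All genes gave 6.16% higher and 5.03% lower in that comparison. Among supporting cell markers, 0 of 9 fell and 3 rose (Lfng, Otogl and Fbxo2) against Cib3-low cells. In the comparison with all other gated cells, 6 of 11 fell and 2 rose (Lfng and Fbxo2). The limits on Agr3, Ocm and Bmp2 leave the excluded cells in that reference and not among Cib3-low cells. Col9a1 (-2.89), Col2a1 (-2.29) and Otol1 (-2.28), matrix genes of the otic epithelium, were among the 10 lowest there.

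Of 12 retinoid genes, 2 rose, 1 fell and 9 passed in neither direction against Cib3-low cells, beside 7.19% and 4.09% of all genes. Dhrs3, a retinal reductase, stood at 1.87, 47.6, 178 and 395 CPM in members and at 0.637, 16.3, 77.1 and 181 in Cib3-low cells, a difference of 1.25 (SE 0.09, adjusted p = 0.000966, edgeR). Stra6, a receptor for retinol-binding protein, had 0.91 (adjusted p = 0.00877). The other reference gave 0 of 13 higher and 1 lower, beside 6.16% and 5.03% of all genes. Spp1, osteopontin, of the striolar and type I list, had 1.13 (SE 0.26, adjusted p = 0.0271) against Cib3-low cells, with 18.0, 535, 484 and 1863 CPM against 3.82, 298, 388 and 506. Of the 6 tested genes of that list, 1 rose (Spp1), 1 fell (Tnc) and 4 passed in neither direction, with a median of -0.39. Spp1 was at 0 UMIs in 71.7% of GFP high and 52.2% of GFP low members, so its summed level rests on a minority of cells. Of 12 polarity genes, 0 passed against Cib3-low cells (edgeR), and Vangl1, a planar polarity gene, rose against all other gated cells.

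Against the Ocm-high cells, which the rule excludes and which were compared in the day 16, GFP high and GFP low libraries, 563 of 11991 genes rose (4.70%) and 515 fell (4.29%), 8.99% in all. Without GFP high these were 49 and 55, and without day 16 822 and 784. Strip2 stood at 1.24, 2.64 and 0.164 CPM in members and at 6.103, 306 and 196 in Ocm-high cells, a log2 difference of -7.18 (SE 0.52, adjusted p = 0.000496, edgeR). Kcnab1 had -2.98 (adjusted p = 0.000695), and Strc, a link protein of stereocilia, -1.84 (adjusted p = 0.00109). Cacna1d stood at 65.3, 92.2 and 95.7 CPM in members and at 198, 233 and 202 in Ocm-high cells, a difference of -1.35 (SE 0.16, adjusted p = 0.00269). Sox2, retained by type II hair cells, stood at 258, 483 and 494 CPM against 45.8, 96.2 and 72.8, a difference of 2.48 (SE 0.17, adjusted p = 0.000415). Of 4 tested genes of a type II list, 1 rose (Sox2) and 3 passed in neither direction, with differences from -0.76 to 2.48. Of 5 tested genes of the striolar and type I list, 1 rose (Cyp26b1) and 1 fell (Pcp4). Ccer2 stood at 5779, 3955 and 843 CPM against 281, 525 and 63.0, a difference of 3.61 (SE 0.28, adjusted p = 0.000588), and Rspo3 had 4.49 (adjusted p = 0.000236). Atoh1 was 1.84 higher (adjusted p = 0.0126). Kcna10, at 51.0, 526 and 889 CPM against 284, 251 and 448, was higher in members in 2 of 3 libraries (adjusted p = 0.97). Col1a1, a mesenchyme marker, was 4.03 higher (adjusted p = 0.00112), with 162 CPM in members of day 16 and 19.7 and 0.818 in the day 21 libraries.

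The Bmp2-high cells could be compared in GFP high and GFP low, which left 1 residual degree of freedom. In that comparison 239 of 12756 genes rose in members (1.87%) and 391 fell (3.07%). Kcnab1 had a log2 difference of -3.04 (adjusted p = 0.0163, edgeR), and Adam11 stood at 9.09 and 21.4 CPM against 202 and 415, a difference of -4.40 (SE 0.12, adjusted p = 0.00457). Isl1 stood at 18.3 and 9.81 CPM against 88.8 and 148, a difference of -2.99 (SE 0.39, adjusted p = 0.0328). Cyp26b1, an enzyme that breaks down retinoic acid, had -1.50 (adjusted p = 0.0212). Higher in members were Gas7 (3.38, adjusted p = 0.0076), Ccer2 (2.09, adjusted p = 0.00987), Atoh1 (1.97, adjusted p = 0.0179) and Sox2 (1.66, adjusted p = 0.0393). Slc17a8 had 1.21 (adjusted p = 0.0494). Markers of other cells were also higher in members, namely Krt5 of the epidermis list (1.87 and 26.2 CPM against 0.457 and 0.859, adjusted p = 0.0433) and Tubb3 of the neuron list (8.55 and 66.9 CPM against 2.97 and 27.7, adjusted p = 0.0243, edgeR), and their part in this comparison was not tested. Sfxn5 (-5.13), Pcp2 (-4.86) and Acot1 (-4.54) were furthest below. Against both excluded classes, members thus held less Kcnab1 and Isl1 and more Sox2, Atoh1, Ccer2 and Rspo3, in comparisons that share the members. The Isl1 call against Ocm-high cells (-2.47, adjusted p = 0.0241, edgeR) was lost without GFP high (adjusted p = 0.2).

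Within the Cib3-positive cells the GFP fractions of day 21 were compared as 2 libraries, with no replicate and no test. A gene was called at a CPM ratio of 2 or more either way with a 95% exact conditional binomial interval that excluded 1, which covers counting error only. Of 3844 genes measured, 134 were higher in GFP high (3.49%) and 45 lower (1.17%), 4.66% in all. Egfp RNA stood at 4384 CPM in GFP high and 946 in GFP low members, a ratio of 4.64 (4.52 to 4.76). Atoh1 itself stood at 165 and 20.9 CPM, a ratio of 7.87 (6.61 to 9.46). Pvalb, parvalbumin, stood at 930 and 107 CPM, a ratio of 8.72 (8.07 to 9.44), and Calb2 at 1001 and 169, a ratio of 5.92 (5.56 to 6.30). S100b had the highest ratio, with 63.6 and 3.93 CPM, 16.2 (10.9 to 25.4).

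Transduction genes gave 2 calls of 7 between the fractions, Cib2 and Lhfpl5, both higher in GFP high, beside 4.66% of all genes measured. Cib2 stood at 713 CPM in GFP high and 270 in GFP low members, a ratio of 2.64 (2.51 to 2.78). Lhfpl5 stood at 702 and 351 CPM, with an interval of the ratio from 1.91 to 2.09. Kcna10 (526 and 889 CPM), Tmc1 (112 and 167), Espn (1855 and 2798) and Xirp2 (735 and 1059) were lower in GFP high without reaching a ratio of 2 either way. Bundle genes gave 0 calls of 19 and axonemal genes 0 of 13. Rspo3 stood at 125 and 254 CPM, a ratio of 0.493 (0.466 to 0.522), and Dhrs3 at 178 and 395, a ratio of 0.452 (0.432 to 0.474).

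Of the transcription factors, 4 of 13 were higher in GFP high (Atoh1, Barhl1, Nhlh1 and Pax2), and of the Notch genes 3 of 5, Dll3, Jag2 and Hes6. The share of all genes measured was 3.49%. Dll3, a Notch ligand, stood at 51.7 and 10.1 CPM, a ratio of 5.10 (3.96 to 6.68). Sox2 stood at 483 and 494 CPM and did not differ beyond counting error. Ccer2 stood at 3955 and 843 CPM, a ratio of 4.69 (4.56 to 4.83). The 10 cells with the most UMIs gave 48.6% of Ccer2 and 81.9% of Pvalb in the 245 GFP low members, so the summed levels there rest on few cells. Tubb3 (8.55 and 66.9 CPM), Stmn2 (7.32 and 56.1) and Sox11 (21.7 and 143) led the genes lower in GFP high, and 10 cells gave 82.8% to 86.7% of their UMIs in GFP low. Spp1 stood at 484 and 1863 CPM, a ratio of 0.260 (0.254 to 0.266).

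**Figure D4:**
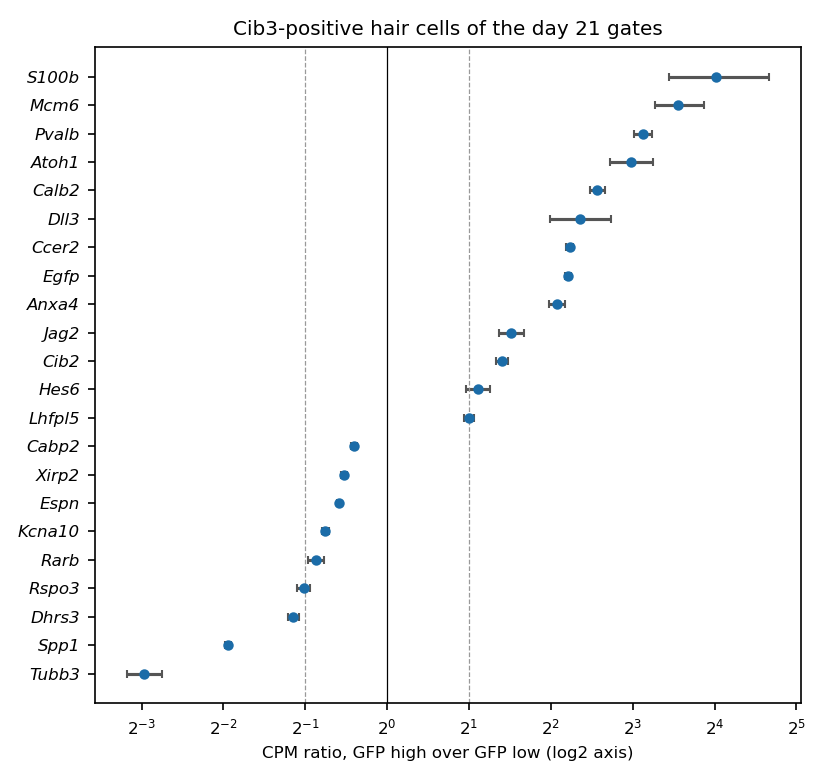
CPM ratio of GFP high over GFP low members (x axis, log2 scale) for 22 genes (y axis), with 95% intervals for counting error; dashed lines mark ratios of 0.5 and 2. Atoh1, Pvalb and Calb2 lie right of the upper line, while Kcna10, Xirp2 and Espn lie between 1 and the lower line.

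The reporter also varied among cells of 1 fraction. After thinning each cell to 10000 UMIs, the 1218 GFP high members that were deep enough held a median of 19 Egfp UMIs, with 10% of cells at 5 or fewer and 10% above 106. Across these cells the rank correlation (Spearman) with Egfp was 0.70 for Pvalb, 0.69 for Ccer2, 0.65 for Atoh1, 0.63 for Cib2 and 0.56 for Calb2. It was -0.65 for Espn, -0.62 for Kcna10, -0.61 for Xirp2, -0.61 for Rspo3 and -0.51 for Cabp2. These cells share 1 library, and the values are a description. In the 412 cells with the least Egfp, Kcna10 averaged 9.08 UMIs and Atoh1 0.204, and in the 401 cells with the most, 1.61 and 3.22. The mitochondrial share also moved with Egfp, at 7.18% and 4.94% in these cells, a rank correlation of -0.37, and its part was not tested. Across the 238 GFP low members, where the median was 8 Egfp UMIs, the values were -0.25 for Xirp2, 0.20 for Cib2, 0.18 for Pvalb, 0.10 for Atoh1, -0.13 for Kcna10 and -0.07 for Espn.

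**Figure D5:**
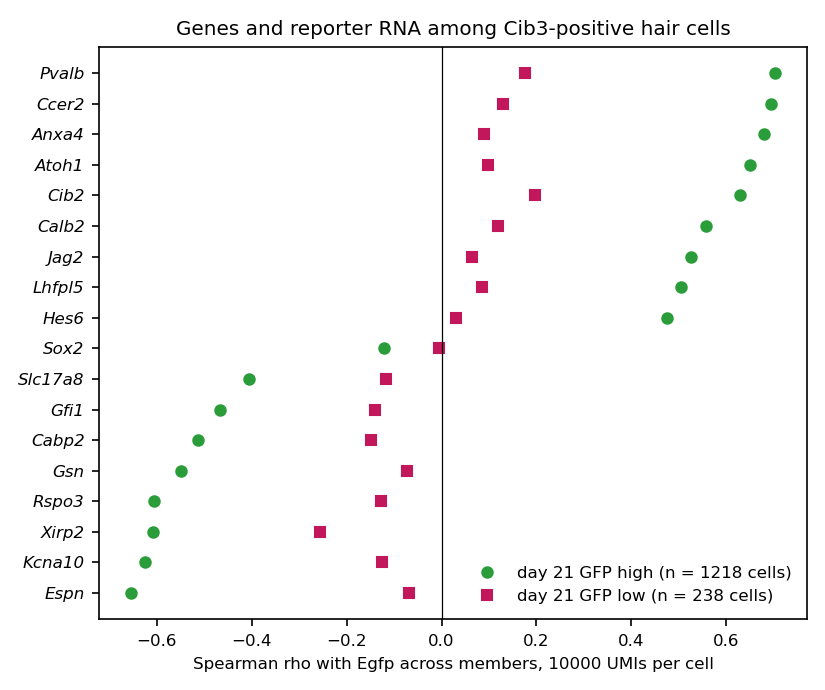
Spearman rank correlation with Egfp (x axis) across Cib3-positive cells thinned to 10000 UMIs, for 18 genes (y axis), in GFP high (circles, 1218 cells) and GFP low (squares, 238 cells). Among GFP high members the values run from 0.70 for Pvalb to -0.65 for Espn, and among GFP low members from 0.20 for Cib2 to -0.25 for Xirp2.

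The 35 members of day 20 and the 45 of day 16 were compared in the same way. Of 3942 genes measured, 188 were higher at day 20 (4.77%) and 383 lower (9.72%). Kcna10 stood at 320 CPM at day 20 and 51.0 at day 16, a ratio of 6.28 (4.85 to 8.19), and Cabp2 at 856 and 289, a ratio of 2.96 (2.62 to 3.36). S100a13 stood at 5433 and 1239 CPM, a ratio of 4.38 (4.15 to 4.63), and Gsn at 657 and 87.1, a ratio of 7.54 (6.23 to 9.18). Rspo3, with 45 and 2 UMIs, had a ratio of 52.2 (13.6 to 444).

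Of 15 transcription factors 0 were higher at day 20 and 8 lower, among them Barhl1, Nhlh1, Insm1, Rfx3, Neurod1, Eya1 and Pax2. The shares of all genes measured were 4.77% and 9.72%. Insm1 had 3 UMIs at day 20 and 101 at day 16, a ratio of 0.0689 (0.014 to 0.207). Neurod1, a neurogenic factor, had 0 and 109 UMIs, and the interval of its ratio ended at 0.0799. Atoh1 stood at 228 and 231 CPM and Egfp at 5647 and 5339, neither called. Mesenchyme markers were lower in 5 of 5 measured cases (Col1a1, Col1a2, Col3a1, Lum and Dcn), and Ptgds, Lum and Dcn were among the 10 genes furthest down. At day 16, 10 of the 45 cells held 96.2% of Col1a1 and 98.0% of Col1a2 UMIs, and at day 20 10 of 35 cells held 100% of Spp1. The age groups rest on few cells, and the part of mesenchyme RNA in the difference was not tested.

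Detection per cell was compared at equal depth. With each cell thinned to 10000 UMIs, Kcna10 was detected in 22.7% of 44 members at day 16, 67.6% of 34 at day 20, 83.1% of 1218 in GFP high and 95.8% of 238 in GFP low. Thinning left out 1, 1, 10 and 7 members, and unthinned the shares were 40.0%, 80.0%, 95.03% and 98.4%. Atoh1 ran from 84.1% at day 16 through 52.9% and 44.6% to 11.8% in GFP low. Mesenchyme cells were taken outside the gate, with Col1a1 and Col3a1 each at 200 CPM or more. In mesenchyme cells of the same libraries, with median totals of 12970, 8679, 22544 and 20918 UMIs, the thinned shares were 0.140%, 0%, 6.12% and 1.80% for Kcna10 and 4.48%, 6.12%, 6.12% and 0.901% for Atoh1. Thinning left out 363, 1422, 6 and 16 mesenchyme cells and kept 714, 850, 49 and 111, so these shares rest on the deeper cells. The 0 of 850 mesenchyme cells at day 20 allows a share of cells with a UMI of up to 0.353%, for counting error only. Cib3-low cells had 13.5%, 42.9%, 55.8% and 76.7% with Kcna10, below members in each library, though at day 16 and day 20 the intervals overlapped. Thinning left out 2, 16, 16 and 27 Cib3-low cells and kept 89, 63, 595 and 150.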

How the data were processed

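The files deposited for each of the 4 libraries are matrices of raw UMI counts by gene and barcode, not normalised and written by Cell Ranger 6.1.2 per the file headers. Cell Ranger 6.1.0, Seurat 4.0.6 and mm10 are named in the submitters' processing notes, with no annotation. In the labels, the description speaks of nuclei and the protocol of cells. The members and the 21 gene lists were chosen with earlier results of these data known. Cells were classed by the rule in the report, with no doublet removal (removing the highest Scrublet scores of Scanpy 1.11.5 was an alternative). The kept cells summed to between 45954382 and 113244855 UMIs per library, which sets the counting error. Counts were summed per library and class, for libraries with at least 10 cells of both classes, filtered with filterByExpr, scaled by TMM and tested with edgeR 4.0.16 (glmQLFit, glmQLFTest, library block, R 4.3.3). DESeq2 1.42.0 was an alternative, and the fit was tested on simulated data. CPM are counts over the total of the same cells. Named genes were the 10 highest and 10 lowest log2 fold changes past the threshold with 1 direction in every library and 50 CPM in either class, or the 10 highest and lowest ratios among genes with 50 CPM and 30 UMIs for 2 libraries, without mitochondrial, ribosomal protein and rule genes, plus list genes and Egfp. The Egfp correlations and cells by Cib3 UMIs were chosen after values were seen. Coordinates are from GENCODE M21 (GRCm38; 287 of 288 named genes found). A few genes that the lists or the rule name are not reported here.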

Additional observations from a re-analysis of the deposited data

How the results depend on the processing

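Limits come first. The library is the unit of the tests and each group has 1, members of day 16 and day 20 are few, and the Bmp2 comparison has 1 residual degree of freedom, so that no library could be left out of it. The groups could not be paired with one another, because each has 1 library and the labels give no shared replicate numbers. The classes were paired, since the library block compares them within a library. Of the named genes, 30 were followed through the alternatives, and none of these reversed its direction; the others were not rerun. Of their values under an alternative, 325 kept direction and call, 41 lost the call and 3 gained it. With no filter beyond 1 UMI, genes higher and lower numbered 1073 and 1350 against all other gated cells, 1220 and 915 against Ocm-high, 965 and 881 against Bmp2-high and 1277 and 1061 against Cib3-low cells. With no library block they numbered 0 and 1, 37 and 81, 1 and 33, and 3 and 0, and axonemal genes higher in members 0 in both comparisons. Leaving out 1 library gave 117 to 802 higher and 87 to 795 lower genes against all other gated cells, 49 to 822 and 55 to 784 against Ocm-high cells, and 152 to 878 and 49 to 511 against Cib3-low cells; axonemal genes ranged from 4 to 12 and from 6 to 13. The lowest value of each range came without GFP high. A minimum of 10 CPM called 352 and 159 genes between the GFP fractions and 347 and 958 between day 20 and day 16, and means of per-cell CPM called 25 lower in GFP high. With Cib3 at 100 CPM the members' share of the gate was 10.9% at day 16 and 47.6% in GFP high (0.486% and 31.2% of kept cells). A 10% mitochondrial limit gave 55.4% in GFP high and 41.0% in GFP low. Thinned to 10000 UMIs before the rule, the shares of the gate were 9.88% at day 16 and 45.1% in GFP high, and of kept cells 0.640%, 1.47% (day 20) and 30.7%. Thinned to 5000 UMIs, Atoh1 was detected in 62.2% (day 16), 33.7% (GFP high) and 7.82% (GFP low), and Kcna10 in 73.4% (GFP high) and 90.1% (GFP low). With a Cib3 minimum of 4 UMIs or 100 CPM, Rspo3 was at 0 in members of day 16 and its ratio had no value. Beyond fewer UMIs, cells, genes or libraries by construction, the cause was not tested.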
